A study of Mus musculus with 3 samples.

Results

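The 10 genes described here are immediate early genes, chosen by name: Fos, Fosb, Jun, Junb, Egr1, Egr3, Arc, Ier2, Npas4 and Nr4a1. They are 10 of the 19621 gene symbols with counts, and their transcripts were followed across 9 annotated regions of the mouse main olfactory bulb. These genes, and the gene lists set beside them, were chosen with earlier results of these data known. Shares set against all genes are therefore descriptions. The samples were 3 coronal sections of C57BL/6J bulb at 12 weeks of age, all of 1 group, with no treatment or genotype compared. Arrays of densely packed barcoded beads captured the poly(A) RNA, and each array spot is a small area that can hold part of a cell or parts of several. Whether the sections came from the same or different animals is not in the labels. The p-values thus measure only how region differences vary among these sections, with each section's own level taken out. That spread may be technical.

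Immediate early genes are transcribed within minutes of a stimulus, without the need for new protein. In neurons, calcium entry through synaptic receptors and channels activates kinases that act on factors already bound at these genes, among them CREB and SRF, and their transcripts are widely used as a record of recent activity. Most encode transcription factors: the Fos and Jun proteins pair to form AP-1, Egr1 and Egr3 are zinc finger factors, Nr4a1 is an orphan nuclear receptor and Npas4 is a neuron-specific factor of the bHLH-PAS family. Arc encodes a synaptic protein involved in the removal of AMPA receptors, and Ier2 a nuclear protein. In the olfactory bulb, inhibitory granule cells of the inner layers and periglomerular cells of the outer layers shape the output of mitral and tufted cells, and odour experience is known to induce several of these genes in granule cells.

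The stretch before the transcription start of these genes is where CREB is known to act, so 4 such windows are shown. They are the 3 with the most copies of the letters it recognises among the 6 members in the table used (Fos, Fosb, Jun, Junb, Npas4 and Nr4a1), and that of Jun, which has none. The other members are Arc, Egr1, Egr3 and Ier2. Each is the 250 bases before the start in the RefSeq table of build GRCm38.p6, written 5′ to 3′ on the strand of the gene. Capitals mark TGACG, the core of the cyclic AMP response element, or its reverse complement CGTCA, searched on both strands. The windows are chr15:101266596-101266845 on the plus strand for Nr4a1, chr12:85473640-85473889 on the plus strand for Fos, chr19:4989972-4990221 on the minus strand for Npas4 and chr4:95052223-95052472 on the minus strand for Jun. Those of Nr4a1 and Npas4 precede a RefSeq start that lies inside the gene as GENCODE M21 places it (chr15:101254269-101274795 and chr19:4984355-4990316).
Nr4a1: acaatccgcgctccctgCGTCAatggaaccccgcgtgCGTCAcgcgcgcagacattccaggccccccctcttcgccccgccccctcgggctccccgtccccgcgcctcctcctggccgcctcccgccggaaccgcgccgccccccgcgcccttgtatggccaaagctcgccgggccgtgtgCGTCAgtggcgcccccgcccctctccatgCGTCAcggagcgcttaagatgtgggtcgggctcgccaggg
Fos: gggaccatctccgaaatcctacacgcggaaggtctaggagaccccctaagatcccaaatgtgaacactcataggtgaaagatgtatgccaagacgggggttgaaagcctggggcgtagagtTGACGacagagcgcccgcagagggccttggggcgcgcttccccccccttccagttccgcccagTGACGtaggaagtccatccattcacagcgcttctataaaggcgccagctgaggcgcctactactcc
Npas4: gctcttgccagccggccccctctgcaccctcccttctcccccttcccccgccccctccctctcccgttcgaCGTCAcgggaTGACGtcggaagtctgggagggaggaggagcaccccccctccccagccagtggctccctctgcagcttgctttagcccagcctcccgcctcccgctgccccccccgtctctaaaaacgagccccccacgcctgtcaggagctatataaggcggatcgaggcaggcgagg
Jun: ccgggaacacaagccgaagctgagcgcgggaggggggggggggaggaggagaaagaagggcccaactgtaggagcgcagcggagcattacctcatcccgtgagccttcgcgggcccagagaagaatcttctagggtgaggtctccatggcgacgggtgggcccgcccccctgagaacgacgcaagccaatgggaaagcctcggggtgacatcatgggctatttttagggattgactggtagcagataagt
The Nr4a1 window held 4 such cores, at 233, 213, 69 and 40 bases before the start. That of Fos held 2, at 129 and 66 bases, and that of Npas4 held 2, at 179 and 169 bases, on opposite strands. The Fosb and Junb windows held 1 each, at 60 and 106 bases, and the Jun window held 0. Of the 6 members in the table, 5 held at least 1, against 17.8% of all 32851 windows in the table, of which 3.90% held 2 or more and 0.137% held 4 or more. The members' windows were 58.4% to 74.4% G and C. A match is a description of the letters and not evidence of binding, and no relation between these letters and the levels of the genes was tested.

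The files placed the spots in nested regions. The outermost were the layer of the olfactory nerve (ONL), the layer of glomeruli (GL), where sensory axons end, and the external plexiform layer (EPL). Inside them lay the mitral layer (M/T) and the inner plexiform layer (IPL), then the granule cells in an external (GCL-E) and an internal (GCL-I) layer. Innermost were a zone annotated as ependymal (E) and a zone annotated as rostral migratory system (RMS). Sections 1, 2 and 3 held 344372, 650890 and 505710 counts, and the 27 sums over a section and a region held from 1456 counts (RMS of section 3) to 182699. Of the marker lists, the granule cell-like, mitral and tufted cell-like, periglomerular-like and sensory axon-like ones were highest in GCL-I, M/T, GL and ONL. Ependymal markers were close to 0 in E, with 4 counts over the 3 sections from 4 of the 6 genes with any count, so these markers do not show the ependymal label of that zone. Section 1 stood apart from the other sections for several lists: its summed level of oligodendrocyte markers was 4358 CPM (counts per 1000000 counts), against 2573 and 2806 CPM in sections 2 and 3, and that of astrocyte markers was 5212 CPM, against 10610 and 9913 CPM. Results that rest on section 1 are therefore given with and without it.

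The 10 genes gave 1413 counts in annotated regions, 646 in section 1, 425 in section 2 and 342 in section 3. Egr1 gave 666 of them, or 47.1%, and Nr4a1 gave 167, Fos 146, Arc 131, Jun 97, Junb 70, Ier2 57, Npas4 48, Fosb 29 and Egr3 2. These are counts and not levels to be compared between genes, since capture can differ from gene to gene. They lay in 1372 spots, and 5 spots held 2 or more of the genes. Egr1, Nr4a1 and Fos passed the filter on low counts and were tested, while the other 7 are described without a test. Counts of Junb are uncertain, because the gene overlaps Prdx2 (422 counts) on the other strand of chromosome 8 in GENCODE M21 (mm10) and the sources used here do not give the strand of counting. Jun overlaps the antisense gene Junos, which had 0 counts.

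By mean level, Egr1 (chr18:34859823-34864984, mm10) was most abundant in the granule cell layers, and lowest in the outer layers and the RMS. In GCL-E its level was 1843, 754 and 667 CPM in sections 1, 2 and 3, and in GCL-I it was 1420, 495 and 639 CPM. In the outer regions it was 837, 142 and 219 CPM in ONL, 652, 212 and 197 CPM in GL, 880, 159 and 200 CPM in EPL, and 761, 312 and 219 CPM in M/T. Within each section, both granule layers lay above all 4 outer regions, although GCL-I of sections 2 and 3 was below the outer regions of section 1. IPL lay between them in each section, at 936, 457 and 237 CPM. E lay between them in sections 1 and 3, at 908 and 452 CPM, and above GCL-I in section 2, at 538 CPM. RMS had 614, 194 and 0 CPM on 10, 1 and 0 counts.

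**Figure D1:**
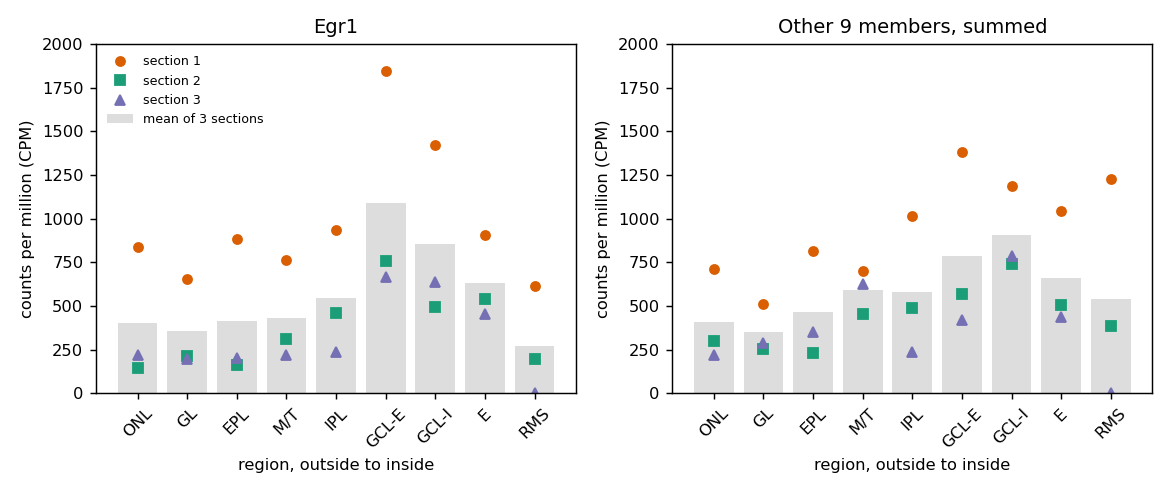
Level in CPM (y axis) by region from outside to inside (x axis), for Egr1 on the left and the other 9 genes summed on the right. Points are the 3 sections and grey bars their mean; the Egr1 mean was highest in GCL-E (1088 CPM) and that of the other genes in GCL-I (906 CPM), and section 1 lay above the other sections in every region in both panels.

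Ordered by mean level, Egr1 measured 1088 ± 655 CPM in GCL-E, 852 ± 498 CPM in GCL-I, 633 ± 242 CPM in E, 543 ± 357 CPM in IPL, 430.4 ± 290.2 CPM in M/T, 413 ± 405 CPM in EPL, 399 ± 381 CPM in ONL, 354 ± 259 CPM in GL and 269 ± 314 CPM in RMS (SD, n = 3 sections each). No 2 neighbours in this order differed beyond their spread, with adjusted p of 0.812 to 0.998 over the 8 neighbouring pairs (edgeR's quasi-likelihood test with Benjamini-Hochberg adjustment over 1996 genes). The wide SDs come with the higher level of section 1, which the model takes out as a block. Of all 36 pairs of regions 9 passed for Egr1. No pair of a granule layer with E, IPL or M/T passed (adjusted p 0.0533 to 0.846, edgeR's quasi-likelihood test). E was higher than GL (adjusted p = 0.00952) and EPL (adjusted p = 0.0238, same test), so the higher level was not particular to the granule layers. Across all 9 regions Egr1 varied (adjusted p = 3.89e-08, edgeR's quasi-likelihood test), and so did Nr4a1 (adjusted p = 0.00230), while Fos did not pass (adjusted p = 0.347). Thus 2 of the 3 tested members varied among regions, where 23.2% of all 1996 tested genes did. Without section 1 Nr4a1 failed the filter, and without section 3 its adjusted p was 0.0643.

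Set against the mean of the other 8 regions, Egr1 was higher in GCL-E by 1.15 ± 0.27 on the log2 scale (SE; adjusted p = 0.0208, edgeR's quasi-likelihood test) and in GCL-I by 0.82 ± 0.19 (adjusted p = 0.00326). It was 1 of the 3 tested members to pass in each of these layers, where 0.401% and 3.31% of all tested genes passed. Nr4a1 was lower in GL (log2 difference -1.57, SE 0.45, adjusted p = 0.00909, edgeR's quasi-likelihood test), in which 1 of 3 members passed against 10.9% of all tested genes. Without section 1 Nr4a1 failed the filter and could not be tested. In the other regions 0 of 3 members passed, where the share of all tested genes was 6.66% in ONL, 12.1% in EPL, 2.20% in M/T, 0% in IPL, 2.61% in E and 0.902% in RMS. In IPL 140 genes had an unadjusted p under 0.05, and DESeq2 also called 0. Without section 2 or without section 3 the calls of Egr1 in both granule layers were lost (adjusted p of 0.343 and 0.258 in GCL-E, 0.0644 and 0.0840 in GCL-I), and without section 2 that of Nr4a1 in GL (adjusted p = 0.144).

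The granule cell layers together were then compared with the 4 outer regions together. Egr1 stood at 1494, 562 and 648 CPM in the granule layers of sections 1, 2 and 3, against 791, 187 and 203 CPM in the outer layers. It was higher in the granule layers of each section, by ratios of 1.89, 3.02 and 3.19, and the 2 sets of values overlapped because the outer layers of section 1 exceeded the granule layers of sections 2 and 3. The means were 902 ± 515 CPM and 394 ± 344 CPM (SD, n = 3 each), and the log2 difference was 1.24 ± 0.19 (SE; adjusted p = 4.80e-09, edgeR's quasi-likelihood test). Without section 1 it was 1.46 (adjusted p = 5.19e-08). A bulk sum cannot tell apart more cells of a type and more RNA per cell.

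Nr4a1 (chr15:101254269-101274795), the orphan nuclear receptor gene, stood at 482, 73.3 and 155 CPM in the granule layers, against 209, 25.02 and 46.5 CPM in the outer layers. It too was higher in the granule layers of each section, by ratios of 2.31, 2.93 and 3.34, on 47 granule counts and 59 outer counts in all. The log2 difference was 1.29 ± 0.42 (SE; adjusted p = 0.0188, edgeR's quasi-likelihood test), and without section 3 the adjusted p was 0.0897. Section 1 gave 30 of the 47 granule counts and 32 of the 59 outer counts. Without section 1 Nr4a1 failed the filter on low counts, so this difference could not be tested there. Its mean was highest in RMS, at 293 ± 259 CPM on 10 counts, followed by GCL-I at 246 ± 180.5 CPM, GCL-E at 243 ± 351 CPM, M/T at 185 ± 114.5 CPM, IPL at 169.8 ± 137.5 CPM, E at 149.6 ± 113 CPM, EPL at 120.4 ± 147 CPM, GL at 48.5 ± 47.1 CPM and ONL at 37.0 ± 24.3 CPM. No neighbours in that order differed beyond their spread (adjusted p 0.456 to 0.997, edgeR's quasi-likelihood test). The count in GCL-E of section 2 was 0, against 7 in section 1.

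Fos (chr12:85473890-85477273) stood at 177, 208 and 169 CPM in the granule layers, against 176, 47.8 and 61.0 CPM in the outer layers. The granule values of the 3 sections lay close together, and the outer layers of section 1 were as high as its granule layers, with a ratio of 1.002 there and of 4.35 and 2.77 in sections 2 and 3. The log2 difference of 0.91 ± 0.42 did not pass (SE; adjusted p = 0.144, edgeR's quasi-likelihood test), nor did it without section 1 (1.32, adjusted p = 0.113). By region its mean ran between 40.9 ± 70.9 CPM in RMS and 199.9 ± 39.3 CPM in GCL-I (SD, n = 3 each), and no neighbours in the order of its levels differed beyond their spread (adjusted p 0.709 to 0.997, edgeR's quasi-likelihood test). In GCL-I against the other regions its log2 difference was 1.16 ± 0.39 (adjusted p = 0.0731), and without section 1 it was 2.37 and passed (adjusted p = 0.0112, edgeR's quasi-likelihood test). That fit compares GCL-I with a mean that includes RMS, where Fos had 0 counts in sections 2 and 3. With RMS left out and all sections kept, Fos did not pass in GCL-I, and with spots joined by name it did.

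Thus 2 of the 3 tested members were higher in the granule layers and 0 lower, where 15.0% of tested genes were called and 6.11% were higher. The median log2 difference of the 3 tested members was 1.24, against -0.04 over all tested genes. The members that failed the filter on low counts are not in that median. Fos passed the filter mainly through granule sums (276 CPM in GCL-E of section 1, 231 and 213 CPM in GCL-I of sections 2 and 3). The median is therefore a description and no independent support for a granule excess. With library sizes as the only scaling the all-gene median shifted to 0.13, and the calls split into 218 higher and 122 lower, against 122 higher and 177 lower with TMM scaling. Egr1 and Nr4a1 passed under both.

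Arc (chr15:74669083-74672570) stood at 193, 171 and 127 CPM in the granule layers, on 35 counts, against 91.5, 47.8 and 40.6 CPM in the outer layers, on 49 counts. The lowest granule value lay above the highest outer value, and the means were 164 ± 33.6 CPM and 60.0 ± 27.5 CPM (SD, n = 3 each). Arc failed the filter on low counts. In a fit without RMS, where it passed that filter, its log2 difference was 1.23 (adjusted p = 0.0347, edgeR's quasi-likelihood test). Arc passed the filter there through sums of section 1, in IPL, GCL-I and E (203.5, 214 and 249.8 CPM). A granule layer thus helped to let it into the test, so that call is no independent support. With no filter on low counts the log2 difference of Arc was 1.07 and did not pass (adjusted p = 0.310, edgeR's quasi-likelihood test).

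Fosb (chr7:19302696-19310051), a close relative of Fos, stood at 64.3, 24.4 and 42.3 CPM in the granule layers on 9 counts, against 6.53, 13.6 and 8.71 CPM in the outer layers on 10 counts. These values did not overlap either. Ier2 (chr8:84661331-84662852) stood at 96.4, 36.7 and 70.5 CPM in the granule layers, against 58.8, 18.2 and 17.4 CPM in the outer layers. It was higher in each section, and the sets overlapped.

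Npas4 (chr19:4984355-4990316) and Junb (chr8:84974484-84978718) were higher in the granule layers of 2 of 3 sections. Npas4 stood at 112.5, 73.3 and 0 CPM there on 7, 6 and 0 counts, against 52.3, 6.82 and 14.5 CPM in the outer layers on 8, 3 and 5 counts. Junb stood at 96.4, 48.9 and 42.3 CPM in the granule layers, against 52.3, 36.4 and 49.3 CPM in the outer layers. In section 3 both went the other way, on few counts.

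Jun (chr4:95049034-95052222), an AP-1 subunit gene, was the member whose level was lower in the granule layers of each section. It stood at 0, 61.1 and 56.4 CPM in the granule layers on 0, 5 and 4 counts, against 45.7, 68.2 and 92.9 CPM in the outer layers on 7, 30 and 32 counts. The sets overlapped, and the means were 39.2 ± 34.0 CPM and 69.0 ± 23.6 CPM (SD, n = 3 each), without a test. With no filter on low counts the log2 difference was -1.14 (adjusted p = 0.606, edgeR's quasi-likelihood test). By region its mean was highest in M/T, at 101.5 ± 48.5 CPM on 9 counts. Egr3 (chr14:70077203-70082614) had 2 counts, 1 in ONL and 1 in IPL of section 2. Its 0 counts in sections 1 and 3 allow a level of up to 8.72 and 5.98 CPM (3 counts of the total).

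**Figure D2:**
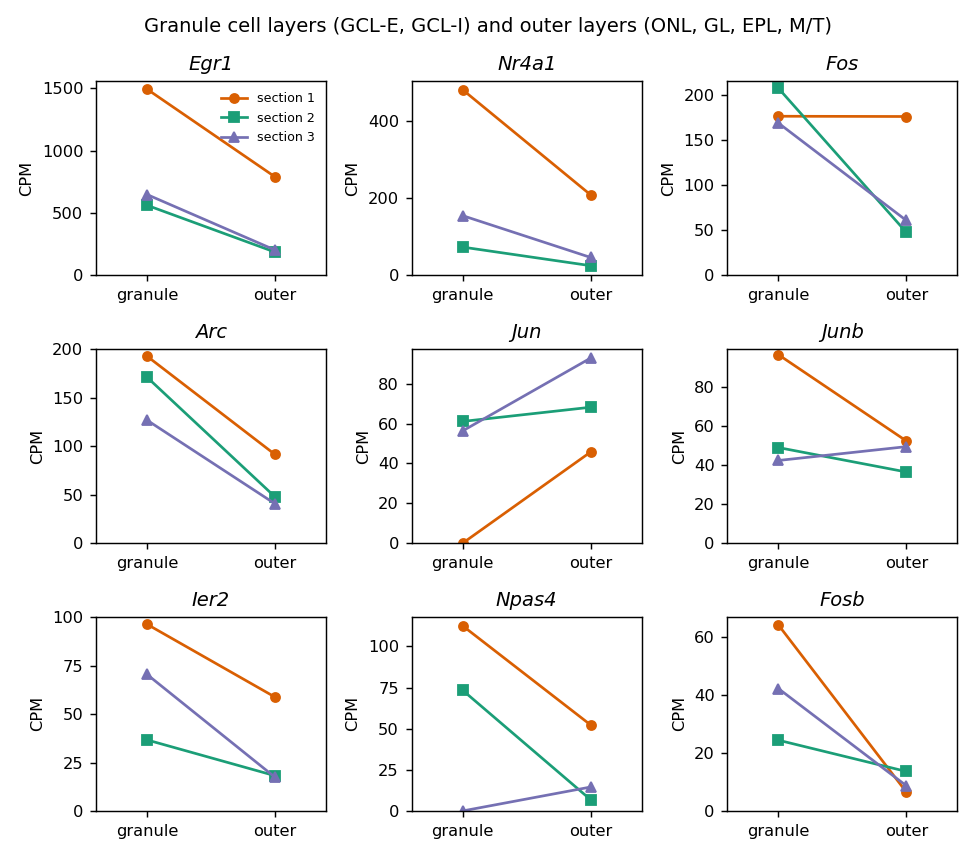
Level in CPM (y axis, a scale of its own for each gene, starting at 0) in the layers of granule cells (GCL-E with GCL-I, left) and the outer layers (ONL, GL, EPL and M/T, right) of each section, for the 9 genes with at least 25 counts. Lines join the values of a section; they fall to the right in 3 of 3 sections for Egr1, Nr4a1, Fos, Arc, Ier2 and Fosb, and run upward in all 3 for Jun.

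Among the 9 members with at least 25 counts, 6 were higher in the granule layers of 3 of 3 sections, against 17.4% of the 9111 genes with as many counts. For 2 of the 9, Arc and Fosb, the lowest granule section lay above the highest outer section, against 5.80% of those genes. For Fos the ratio in section 1 was 1.002, so that its count among the 6 rests there on a difference within the counting interval of 88.2 to 316 CPM. Per spot in place of per count, the ratio of means was 3.59 for Egr1, 4.07 for Nr4a1 and 3.95 for Arc, against 2.29, 2.53 and 2.73 per count. A ratio per spot also takes in how many counts of all genes a spot held, and it rose for other genes too. That of Gad1 was 2.75 per spot, against 2.07 per count, and that of Jund 1.55, against 1.03.

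Markers of granule cells moved the same way. Of 10 granule cell-like genes, all tested, 7 were higher in the granule layers and 0 lower, among them Gad1, a GABA synthesis enzyme gene (log2 difference 0.79), Pcp4 (1.12), Penk, the proenkephalin gene (1.31), Gpsm1 (0.83), Meis2 (0.79), Tshz1 (0.68) and Synpr (0.50). Their summed level was 10440, 10220 and 9711 CPM in the granule layers, against 6149, 4976 and 4572 CPM in the outer layers, and their part in the result of the immediate early genes was not tested. Mitral and tufted cell-like genes ran opposite, with 5 of 5 tested lower in the granule layers (0.284 times the outer level on the summed CPM). Of the other lists, 4 of 5 periglomerular-like, 3 of 3 sensory axon-like, 4 of 5 ensheathing glia-like, 7 of 8 astrocyte-like, 3 of 4 blood-like, 1 of 2 endothelial and mural-like and 1 of 6 neuroblast-like genes were lower, and 2 of 5 oligodendrocyte-like genes were higher. Microglia-like and ependymal-like genes were too few in counts to be tested.

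Genes upstream of the immediate early response, listed as receptors, kinases and transcription factors, were described in the same way. Of 30 such genes 17 were tested, of which 7 were higher in the granule layers and 1 lower, with a median log2 difference of 0.60. Among those higher were Ptk2b, a calcium-activated tyrosine kinase gene (457 ± 70.2 CPM in granule layers, 158 ± 102 CPM in outer layers; log2 difference 1.75), the kinase genes Camk2b (0.91) and Map2k1 (0.65), the NMDA receptor subunit genes Grin1 (0.89) and Grin2b (0.64), and the calcineurin gene Ppp3ca (0.60). Prkacb, a catalytic subunit of protein kinase A, was lower (-0.77). Mef2c, a transcription factor gene among the most counted of the list, had a log2 difference of 0.43 and did not pass (adjusted p = 0.147, edgeR's quasi-likelihood test).

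Few other genes of the same response could be tested. Of 18 other immediate early transcription factor genes 17 had counts and 1 was tested: Jund, an AP-1 subunit gene, stood at 369.5, 122 and 155 CPM in the granule layers, against 405, 109 and 113 CPM in the outer layers, and did not pass (log2 difference 0.13, SE 0.30, adjusted p = 0.840, edgeR's quasi-likelihood test). By summed level these genes stood at 719 ± 437 CPM in granule layers and 575.5 ± 328 CPM in outer layers, a ratio of 1.25, against 2.14 for the 10 members. Of 30 activity-regulated effector genes 2 were tested and 0 passed: Arpp21 had a log2 difference of 0.31 (adjusted p = 0.402) and Scg2, the secretogranin II gene, of -0.21 (adjusted p = 0.591). Of those with the next most counts, Homer1, a postsynaptic scaffold gene, measured 114 ± 76.4 CPM in granule layers and 72.7 ± 34.8 CPM in outer layers, and Vgf, a neuropeptide precursor gene, 90.2 ± 36.3 CPM and 105 ± 84.3 CPM. Untested genes of the 2 lists went both ways, with examples picked after their values were seen. Klf10 (36.4 ± 11.0 against 6.90 ± 6.11 CPM), Dusp14 (98.2 ± 13.7 against 35.6 ± 25.9 CPM) and Dusp5 were higher in the granule layers of 3 of 3 sections. Plk2, Rgs4 and Spry2 were higher there in 0 of 3.

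Position within the bulb was also measured as the distance in array positions to the nearest M/T spot, with the inward or outward side taken from the annotated region, so this measure also rests on the annotation. Within 50 positions inward of M/T, Egr1 stood at 1304, 570 and 535 CPM in sections 1, 2 and 3, and within 50 positions outward at 981, 144 and 216 CPM. The first inward bin was the highest of each section among the bins with at least 2000 counts in every section. Farther inward, at 50 to 100 positions, Egr1 stood at 928, 404.5 and 419 CPM, below the first inward bin in each section. Outward, the means were 322 ± 229 CPM at 50 to 100 positions, 420 ± 375 CPM at 100 to 150 and 289.5 ± 210 CPM at 150 to 200 (SD, n = 3 each), with no order that held in all sections. The other 9 genes summed were 802 ± 383 CPM in the first inward bin and 459 ± 313 CPM in the first outward bin. In section 3 their highest bin was M/T itself, at 625 CPM, against 553 CPM in the first inward bin.

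**Figure D3:**
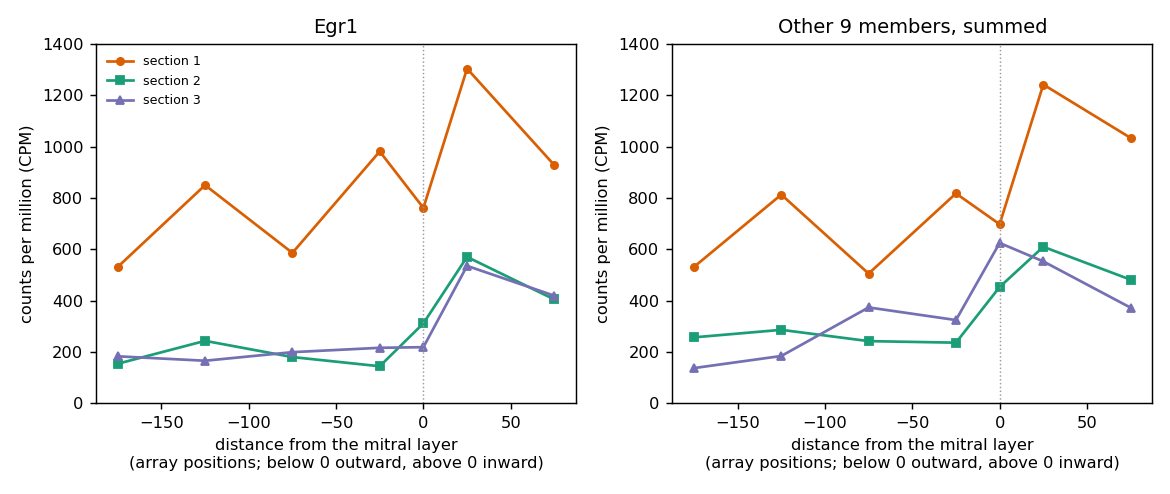
Level in CPM (y axis) by distance from the mitral layer in array positions (x axis; below 0 outward, above 0 inward, bins of 50), for Egr1 on the left and the other 9 genes summed on the right, with a line per section. Egr1 peaks in the first inward bin in each section (1304, 570 and 535 CPM), and section 1 lies above the others.

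Spots within 5 array positions of another region were then left out. This left GCL-E with 107, 232 and 2883 counts in sections 1, 2 and 3, of which 0 were Egr1, so that the fitted difference of the granule layers turned round to -2.21 and did not pass (adjusted p = 0.571, edgeR's quasi-likelihood test). GCL-I, which kept 33568, 32725 and 27417 counts, held Egr1 at 1519, 519.5 and 511 CPM. That was 850 ± 580 CPM, against 413 ± 419 CPM in the interior of EPL, 350 ± 201 CPM in that of GL and 425 ± 475 CPM in that of ONL (SD, n = 3 each), without a test of that difference.

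The level of these genes differed between sections as well as between regions. Over the whole section Egr1 stood at 950.0 CPM in section 1 (95% Poisson interval 850 to 1059), against 295 CPM (254 to 340) in section 2 and 297 CPM (251 to 349) in section 3. Nr4a1 stood at 296 CPM (242 to 360) in section 1, against 49.6 CPM (34.0 to 70.1) and 65.8 CPM (45.3 to 92.3). Fos stood at 174 CPM (133 to 224), against 72.9 and 77.7 CPM, Arc at 160 CPM (120 to 208), against 71.4 and 59.8 CPM, Ier2 at 87.2 CPM, against 23.3 and 23.9 CPM, and Npas4 at 75.5 CPM, against 21.7 and 15.9 CPM. For these 6 genes section 1 was at least 2 times as high as each other section, and the intervals, which cover counting error only, did not overlap. Whole-section levels weight each layer by its counts. The outer layers held 153034 of the 344218 counts of section 1, against 439736 of 644694 in section 2 and 344458 of 501870 in section 3. By extent they took up 524850 of 874864 spots in section 1, against 461324 of 677375 and 482224 of 698186, spots of unknown region included. The part of the layers in the difference between sections was not tested. Within the granule layers alone Egr1 and Nr4a1 were still more than 2 times as high in section 1 as in each other section. Fos was not, at 177 CPM, against 208 and 169 CPM. Nor were Arc (193, against 171 and 127 CPM), Ier2 (96.4, against 36.7 and 70.5 CPM) and Npas4 (112.5, against 73.3 and 0 CPM). Fosb stood at 32.0 CPM in section 1, against 14.0 and 17.9 CPM, and Junb at 63.9 CPM, against 37.2 and 47.8 CPM. Jun went the other way, at 37.8 CPM (20.1 to 64.6) in section 1, against 71.4 CPM (52.2 to 95.2) and 75.7 CPM (53.6 to 104).

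**Figure D4:**
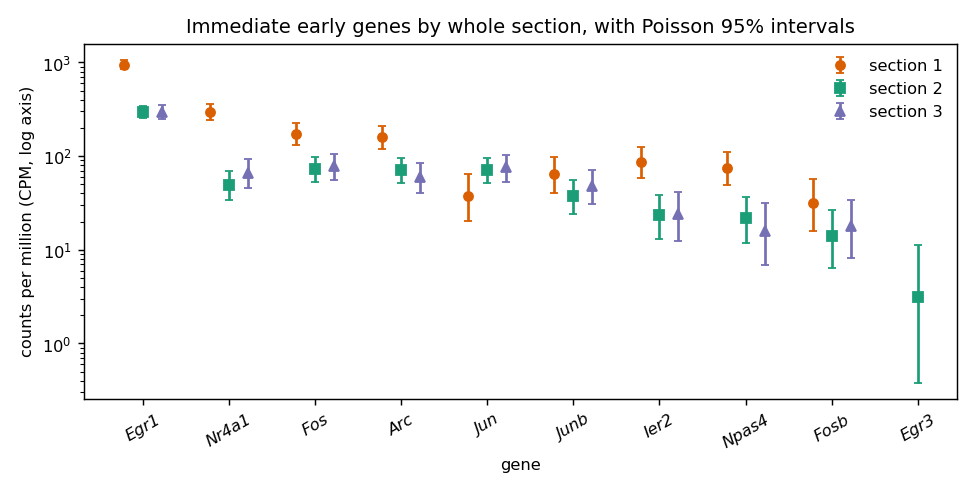
Level of each gene over the whole section in CPM (y axis, log scale) for sections 1, 2 and 3, with 95% Poisson intervals as bars. Section 1 lies highest for 8 of the genes (Egr1 at 950 CPM, against 295 and 297 CPM) and lowest for Jun; Egr3 has a point in section 2 only, since 0 cannot be drawn on a log axis.

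Section 1 was at least 2 times as high as each other section for 6 of the 9 members with at least 25 counts, against 11.5% of 9111 genes. The median gene had 0.921 times the level of the higher of the other sections, with 50% of genes between 0.519 and 1.46 times. Of 9 other immediate early transcription factor genes with as many counts 5 passed that fold, Jund (378 CPM, against 113 and 130 CPM), Ier5 (113, against 49.6 and 49.8 CPM), Per1 (134, against 43.4 and 37.9 CPM), Btg2 (69.7, against 20.2 and 33.9 CPM) and Egr4 (72.6, against 6.20 and 13.9 CPM). Klf10 was lower in section 1 by at least that fold (5.81, against 24.8 and 15.9 CPM), as were 17.7% of the 9111 genes. Nr4a2 stood at 81.3 CPM, against 31.0 and 47.8 CPM, and did not pass that fold. Of 21 effector genes 5 passed it: Gadd45g at 4.01 times the higher of the other sections, Dusp5 at 3.49, Nab2 at 2.71, Vgf at 2.53 and Nptx2 at 2.19 times. Another 3 were lower in section 1 than in each other section by at least that fold: Homer1 at 0.336 times the higher of the others, Tiparp at 0.250 and Spry2 at 0.216 times, a share of 14.3% that lies below the 17.7% of all genes. With 1 section on one side there is no test of these differences.

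Other measures moved with section 1. Of 8 oligodendrocyte-like genes 5 passed the same fold, and of 10 astrocyte-like genes 0 passed it and 4 were low in section 1. Neuronal markers moved too: the summed level of granule cell-like genes was 7905 CPM in section 1, against 6265 and 5850 CPM, with 3 of 10 past the fold, and that of mitral and tufted cell-like genes was 2519 CPM, against 1550 and 1592 CPM, with 1 of 7 past it. Per spot under tissue section 1 had fewer counts of all genes, and per 100000 spots Egr1 had 37.4 counts in section 1, against 28.3 and 21.5 in sections 2 and 3. Nr4a1 kept a wide gap on that scale, with 11.7 counts per 100000 spots, against 4.77 and 4.76. Arc did not, with 6.29 counts, against 6.86 and 4.32, nor did Fos, with 6.86 counts, against 7.005 and 5.62. The part of depth and of these cell type markers in the difference between sections was not tested.

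Among the 1993 other tested genes, those whose pattern over the 27 sums was most like that of Egr1 included Eml5 (Pearson r = 0.915), Grin1 (0.901), Gad1 (0.877) and Camk2b (0.872). For the other 9 members summed they included Napb, a gene of the vesicle fusion machinery (0.934), and Mapk8ip3, a kinase scaffold gene (0.916). Egr1 and the other 9 members summed correlated at 0.846, Egr1 and Fos at 0.620, Egr1 and Nr4a1 at 0.315 and Fos and Nr4a1 at -0.01. These are descriptions over sums that share sections, arrays and depth, with each section's mean taken out. The r of the genes named as most like was 0.904 to 0.951 without section 1.

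At the scale of neighbouring spots, the genes showed little company. Of the spots with Egr1, 3.76% in section 1, 6.35% in section 2 and 6.21% in section 3 had another member within 5 array positions. The exact binomial 95% intervals were 1.96% to 6.48%, 3.32% to 10.8% and 2.88% to 11.5%. Entries of all other genes had a member nearby in 4.34%, 3.68% and 3.13% of cases. Egr1 lay below that share in section 1 and above it in sections 2 and 3, within the interval in each, so a difference was not detectable at this depth.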

How the data were processed

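Spatial arrays measured poly(A) RNA in 3 coronal sections of mouse olfactory bulb, each 1 sample. The authors deposited raw counts per spot and gene, and a table with the position and region of each spot. The counts are whole numbers with zeros not listed. The sources used here do not give the aligner, annotation or strand, nor whether unique molecules were counted. Per the submitters' processing notes, the genome build was mm10. Gene positions came from GENCODE M21, in which 19582 of 19621 symbols matched, and promoter windows from RefSeq (GRCm38.p6).

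Pixel positions tied spots to regions (100% of entries), and counts were summed into 27 sums of section and region. Counts without a gene name (0.0325%, 0.0764% and 0.0801% of counts) and spots of unknown region stayed out. The count totals used, 344218, 644694 and 501870, limit the precision, and Poisson and binomial 95% intervals cover counting error only. CPM is the count per 1000000 counts of the sum. edgeR 4.0.16 in R 4.3.3 (quasi-likelihood test, TMM, region and section in the model) was fitted to all 1996 genes that passed filterByExpr with a minimum count of 10, with Benjamini-Hochberg adjustment and a threshold of 0.05. Tests were checked on simulated data.

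The 10 members were named in full. Of the lists of related genes described in detail, the members with the most counts and those that passed were named. A few more were picked after their values were seen. Of 12 cell type marker lists, counts alone were given except for granule cells. A few genes within this rule are not reported here. The members and lists were chosen with earlier results of these data known. Sections share a number across regions because they are the same tissue, so the section is a block in the main model. Alternatives were other scalings, no filter, no section block, each section left out, DESeq2 1.42.0, another join, boundary spots left out, RMS left out, levels per spot, pooled sections and wider bins. A fit of granule and outer layers alone, a fold of 1.5 and a radius of 10 positions were added after the data were seen.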

Additional observations from a re-analysis of the deposited data

Results flagged for a closer look

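In section 2, 5 counts of the 10 genes lay in spots that the deposited annotation places in no region. They were flagged because they exceeded 3 counts, a rule that does not take the depth of these spots into account. The 10 genes stood at 659 CPM in the annotated regions of section 2, and an excess in the unplaced spots was not tested. Sections 1 and 3 had 0 and 1 such counts. These spots held 42, 5699 and 3435 counts of all genes in sections 1, 2 and 3, and enter no comparison.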

How the results depend on the processing

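The number of members that pass the filter changes with the setting: 3 were tested in the fit reported, 10 with no filter, 4 without RMS, 2 without section 1 and 1 (Egr1) with boundary spots left out. Of the 3 tested, 2 varied among regions, and without the replicate block 0 did, with boundary spots left out 1, and with each section left out 1 to 2. In the granule layers against the outer layers 2 passed, against 1 with no filter on low counts, 0 without the block, 0 with boundary spots left out, 3 without RMS (Arc, Egr1 and Nr4a1) and 1 to 2 with each section left out. In GL 1 passed, against 2 with library sizes alone, 0 with no filter, 0 without the block, 0 with boundary spots left out, 2 without RMS and 0 to 1 with each section left out. In EPL 0 passed, and 1 without RMS. In GCL-E 1 passed, against 0 with no filter, 0 without the block, 0 with spots joined by name, 0 with boundary spots left out and 0 to 1 with each section left out. In GCL-I 1 passed, against 0 without the block, 2 with spots joined by name, 2 without RMS and 0 to 2 with each section left out. In E 0 passed, against 1 with boundary spots left out and 0 to 1 with each section left out. With boundary spots left out, 297 of all 1233 tested genes passed in E, 297 of them higher. The all-gene median log2 difference was 0.66 there, so that call was not particular to the member. Without section 1, 42 of 2143 tested genes passed in E. Without the block, the adjusted p of Egr1 in the granule layers was 0.0957 and that of Nr4a1 0.271 (edgeR's quasi-likelihood test).

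With boundary spots left out, Egr1 turned round to -2.21 (adjusted p = 0.571) in the granule layers and to -6.49 (adjusted p = 0.314) in GCL-E, where 0 Egr1 counts were left. In the granule comparison Egr1 was higher under 11 of 12 settings and passed under 10, Nr4a1 was higher under 10 of 10 and passed under 7, and Fos was higher under 11 of 11 and passed under 0. Genes called among regions numbered 464, against 732 with no filter, 40 without the block, 174 without section 2 and 233 without section 3. Genes called in the granule comparison numbered 299, against 183 with no filter, 53 without the block, 113 without section 2, 130 without section 3 and 33 with boundary spots left out. The cause of these changes was not tested. Counts of 2 to 167 in 9 of the 10 genes limit what can be said of a single region: 7 of the genes fail the filter on low counts, and means there rest on few counts in a section.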

Other observations

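Nptx1, a neuronal pentraxin gene on the list of activity-regulated effectors, was picked out after its values were seen. It stood at 16.1, 0 and 0 CPM in the granule layers of sections 1, 2 and 3 on 1, 0 and 0 counts, against 111, 75.1 and 98.7 CPM in the outer layers on 17, 33 and 34 counts. The granule values lay below the outer values in each section, opposite to Egr1. It failed the filter on low counts and was not tested. Its relative Nptx2 stood at 45.8 ± 16.6 CPM in the granule layers and 96.9 ± 63.3 CPM in the outer layers (SD, n = 3 each).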
